A study of Rattus norvegicus with 6 samples.

Results

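A set of 10 genes of the white fat cell were followed in the rat aorta: the adipokine genes Adipoq and Lep, the fatty acid supply genes Lpl and Fabp4, the lipid droplet genes Plin1 and Cidec, the lipase genes Lipe and Pnpla2, and the transcription factor genes Pparg and Cebpa. They were chosen by name, as rows of the deposited table annotated with exactly 1 gene symbol. All 10 of 10 were measured, each on 1 row, among 14324 genes with a symbol of their own. Total RNA came from male Fisher 344 rats aged 1 to 2 months, either as rings freshly cut from the aorta (day 0) or as rings kept in collagen gel in serum-free medium for 1 day (day 1). Each group held 3 arrays, and each array measured RNA pooled from 4 to 6 rings or cultures. No treatment, transgene or deletion is named for either group, and the labels do not say how much of the fat around the vessel was left on the rings. Replicates are labelled biological, without a statement on whether the same animals gave rings to several pools, and the p-values describe no more than the spread among the pools.

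White adipocytes store triglyceride in 1 large droplet and release it on demand. The aorta is wrapped in perivascular fat, which lies against the adventitia and secretes adipokines that act on the vessel wall. PPAR-gamma and C/EBP-alpha are the factors that drive and maintain fat cell differentiation. Lipoprotein lipase frees fatty acids from circulating lipoproteins, the fatty acid-binding protein carries them inside the cell, perilipin 1 and CIDEC coat and enlarge the droplet, and ATGL (Pnpla2) and hormone-sensitive lipase (Lipe) take the first steps of its breakdown. Adiponectin, leptin, perilipin 1 and CIDEC are largely restricted to fat cells, whereas Lpl, Fabp4, Pnpla2 and Pparg are also expressed in macrophages, muscle or capillary endothelium.

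Sequence windows before the annotated gene starts were available in RefSeq (build GRCr8) for 7 of the 10 genes. Those of Adipoq, Plin1 and Cidec are shown because these 3 genes were lower on day 1, and that of Lep because it was not called. Each run is the 250 bases before the annotated start, 5′ to 3′ on the gene's strand. Capitals mark CCAAT boxes (CCAAT or ATTGG) and matches to a short C/EBP-type motif (TTGCNNAA or TTNNGCAA, N being any base).
Adipoq, chr11:91240170-91240419, minus strand: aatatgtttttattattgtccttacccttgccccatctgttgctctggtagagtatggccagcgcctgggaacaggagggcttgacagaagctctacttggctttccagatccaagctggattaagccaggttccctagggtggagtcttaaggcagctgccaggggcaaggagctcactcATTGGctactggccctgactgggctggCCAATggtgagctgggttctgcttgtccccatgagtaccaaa
Plin1, chr1:143086149-143086398, minus strand: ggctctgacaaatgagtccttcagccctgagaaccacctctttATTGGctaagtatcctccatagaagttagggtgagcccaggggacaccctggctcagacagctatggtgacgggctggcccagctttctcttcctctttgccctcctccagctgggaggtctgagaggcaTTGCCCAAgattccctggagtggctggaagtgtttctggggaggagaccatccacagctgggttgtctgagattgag
Cidec, chr4:148137116-148137365, minus strand: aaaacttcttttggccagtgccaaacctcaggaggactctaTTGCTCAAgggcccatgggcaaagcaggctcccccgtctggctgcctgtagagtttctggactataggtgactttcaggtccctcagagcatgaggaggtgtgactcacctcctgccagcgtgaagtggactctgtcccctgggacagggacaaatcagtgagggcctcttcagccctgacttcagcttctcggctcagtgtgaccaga
Lep, chr4:58626288-58626537, plus strand: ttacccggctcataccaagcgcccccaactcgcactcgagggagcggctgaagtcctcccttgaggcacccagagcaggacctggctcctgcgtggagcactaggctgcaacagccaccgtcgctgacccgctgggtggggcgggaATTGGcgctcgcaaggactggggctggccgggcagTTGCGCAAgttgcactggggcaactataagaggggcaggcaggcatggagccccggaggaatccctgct
The window of Adipoq held 2 CCAAT boxes, first bases 69 and 42 before the start, and no C/EBP-type match. Plin1 had its C/EBP-type match 77 bases before the start and Cidec 209 bases before it. In Lep the match was the palindrome TTGCGCAA, 69 bases before the start. Among the 8 windows of these genes (Pparg had 2), 4 held the C/EBP-type motif and 4 a CCAAT box, against 9.22% and 34% of the 33469 windows of that length in RefSeq. The nuclear receptor half-site AGGTCA (or TGACCT) was found in 0 of the 8 windows and in 14.1% of all windows. The motifs do not overlap one another in these windows. The genes that changed and those that did not both held matches, and a match is a description of letters, not of binding.

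After 1 day in culture, 6 of the 10 genes fell: Lpl, Adipoq, Fabp4, Cidec, Plin1 and Lipe, by 1.41-fold to 2.86-fold. Pparg, Cebpa and Lep did not pass the test. Pnpla2 was slightly higher, a call that was lost under most alternative settings. In the same test 20.7% of all genes fell and 27.6% rose, so 48.3% changed in either direction. All day 1 arrays lay below all day 0 arrays for 6 of the 10 genes, against 25.5% of all genes, and above them for 1, against 31.4%; in either direction, 7 of 10 genes and 56.9% of all genes had no overlap. The median log2 change over the 10 genes was -0.57, beside -0.01 over all genes tested. Changes are log2 differences, day 1 minus day 0, with ± giving their standard errors (limma, n = 3 per group) unless SD is named, and p-values are limma's, adjusted by Benjamini-Hochberg over all genes with a threshold of 0.05. Array background can narrow the log2 differences of dim rows, and how far it did so here was not tested.

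**Figure D1:**
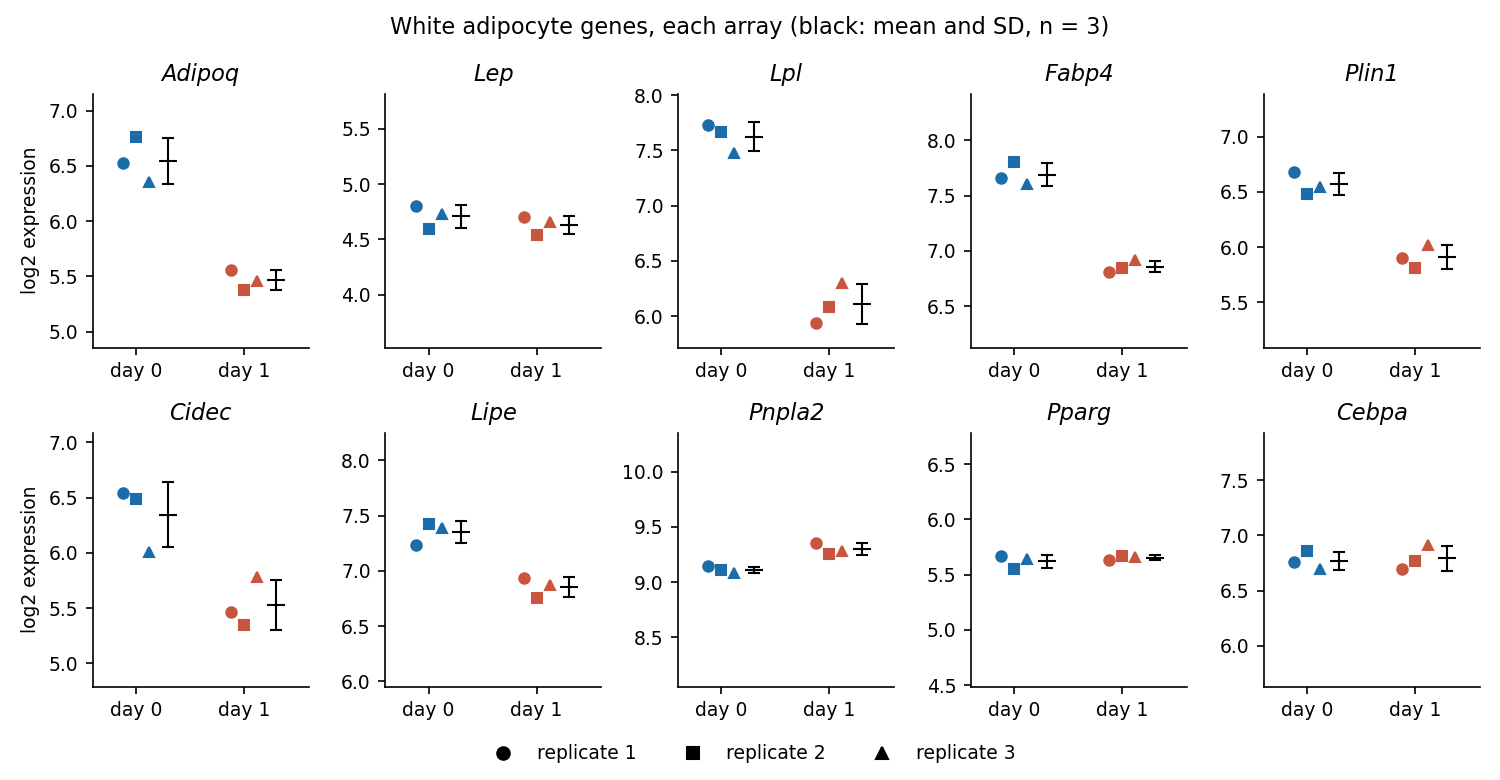
Log2 expression of each of the 10 genes in each of the 6 arrays (vertical axes, all spanning the same range), with day 0 in blue and day 1 in red, marker shape for the replicate, and black bars for mean and SD of 3 arrays. For Adipoq the day 1 arrays, at 5.38 to 5.56, all lie below the day 0 arrays, at 6.35 to 6.76, while for Pparg, Cebpa and Lep the groups overlap.

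Of the adipokine genes, Adipoq was called lower and Lep was not called. Adipoq, which encodes the insulin-sensitising hormone adiponectin, was at 6.52, 6.76 and 6.35 in the day 0 arrays and at 5.56, 5.38 and 5.46 in the day 1 arrays. Every day 1 array lay at least 0.79 below every day 0 array. The change of -1.08 ± 0.11 left 47.3% of the day 0 level (adjusted p = 8.44e-05). Adipoq lay above the array medians on day 0 (5.91 to 5.95) and below them on day 1 (5.87 to 5.89). Array medians and quartiles, here and below, are taken over all 27342 rows, with or without a gene symbol. Among the 14324 genes tested, the mean of Adipoq over all 6 arrays lay under the median of the gene means. The percentage is a share of array signal, and how far background altered it was not tested. Lep, which encodes the satiety hormone leptin, was at 4.80, 4.59 and 4.73 on day 0 and at 4.70, 4.54 and 4.66 on day 1. The groups overlapped, and the difference of -0.08 had a 95% confidence interval from -0.25 to 0.10 (adjusted p = 0.462). Lep was dim in all 6 arrays, above the lower quartile of each array (4.27 to 4.39) and below its median (5.87 to 5.95). The table gives no detection call, so whether this row stood above background is not known.

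Both genes of fatty acid supply fell, and Lpl had the largest fall of the 10 genes. Lpl, the lipase anchored at the capillary wall, was at 7.73, 7.66 and 7.48 on day 0 and at 5.94, 6.09 and 6.30 on day 1. Its groups were 1.18 apart at their nearest arrays, the widest gap of the 10 genes. The fall of 1.51 ± 0.11 left 35% of the day 0 level (adjusted p = 1.29e-05). Fabp4, the cytosolic fatty acid carrier of fat cells, was at 7.65, 7.80 and 7.61 on day 0 and at 6.81, 6.85 and 6.92 on day 1. The day 1 arrays again lay together and below all day 0 arrays, and the change was -0.83 ± 0.07 (adjusted p = 3.92e-05).

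Both droplet coat genes fell. Plin1, the perilipin that guards the droplet surface against lipases, was at 6.68, 6.48 and 6.55 on day 0 and at 5.91, 5.81 and 6.02 on day 1. The groups did not overlap, and the change was -0.66 ± 0.08 (adjusted p = 2.89e-04). Cidec, whose protein fuses small droplets into large ones, was at 6.54, 6.49 and 6.01 on day 0 and at 5.47, 5.34 and 5.78 on day 1. It was the most variable of the 10, with an SD of 0.29 on day 0 and 0.23 on day 1, and its groups were 0.23 apart at their nearest arrays, day 0 replicate 3 and day 1 replicate 3. The change was -0.81 ± 0.16 (adjusted p = 0.00386), and it passed the threshold with each array left out in turn. The day 1 values of Cidec lay below the array medians.

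Of the lipase genes, Lipe fell and Pnpla2 did not. Lipe, the hormone-sensitive lipase that acts on diglycerides, was at 7.24, 7.42 and 7.39 on day 0 and at 6.94, 6.75 and 6.87 on day 1. No arrays overlapped, and the change of -0.49 ± 0.08 was the smallest of the 6 falls (adjusted p = 0.0011). Pnpla2, which encodes the triglyceride lipase ATGL found in many tissues, was at 9.14, 9.11 and 9.09 on day 0 and at 9.36, 9.25 and 9.28 on day 1. The day 1 arrays were all higher, by 0.11 at the nearest arrays, and the change was 0.18 ± 0.06 (adjusted p = 0.0349). This call passed in 7 of 17 settings, the one reported here included. It was lost after quantile normalization, at 0.08 (adjusted p = 0.284), after median centring, at 0.12 (adjusted p = 0.101), and with any 1 of the 6 arrays left out (adjusted p = 0.0542 to 0.102).

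The factor genes Pparg and Cebpa were not called. Pparg was at 5.66, 5.55 and 5.64 on day 0 and at 5.63, 5.67 and 5.66 on day 1. The difference of 0.03 had a 95% confidence interval from -0.11 to 0.17 (adjusted p = 0.683), and the row lay below the array medians throughout. Cebpa was at 6.76, 6.86 and 6.69 on day 0 and at 6.70, 6.77 and 6.91 on day 1. Its difference of 0.02 had an interval from -0.16 to 0.20 (adjusted p = 0.842). The signs of these small differences turned under some settings, Pparg to -0.031 after median centring and Cebpa to -0.041 after quantile normalization. For both genes the interval leaves out a change of array signal as large as the -0.49 of Lipe. The intervals cover the scatter among arrays only, and how far background narrowed the difference of the dim Pparg row was not tested.

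**Figure D2:**
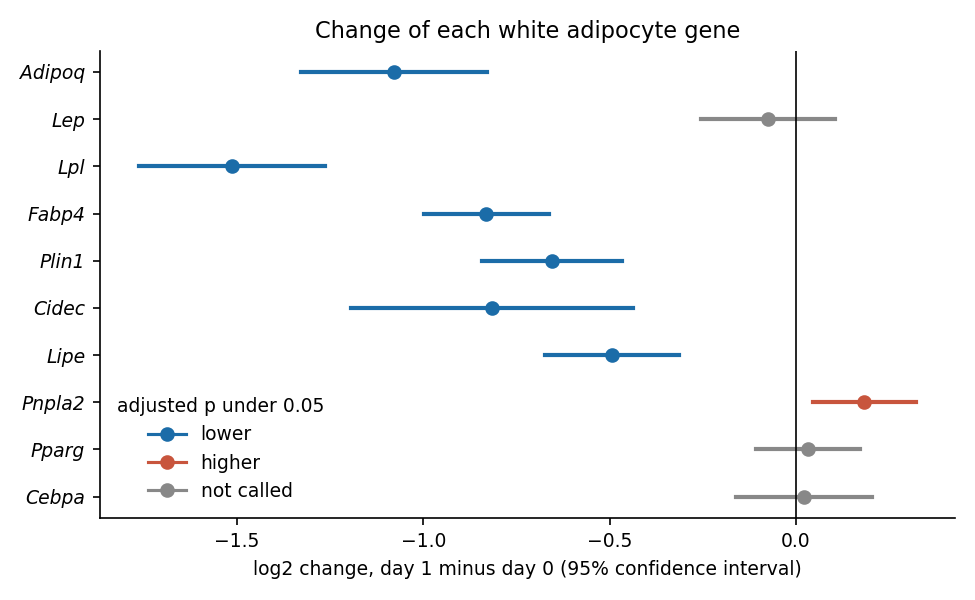
Log2 change, day 1 minus day 0 (horizontal axis), of the 10 genes with 95% confidence intervals from limma, blue for genes called lower, red for higher and grey for not called. The intervals of 6 genes lie below 0, from Lpl at -1.51 to Lipe at -0.49, and those of Lep, Pparg and Cebpa span 0. Pnpla2 lies above 0 here but was not called under most alternative settings.

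The changes were also compared within arrays, by subtracting the log2 value of Adipoq from that of each other gene in the same RNA pool. With 3 arrays against 3, an exact two-sided permutation test cannot give a p under 0.1, so no such difference can pass 0.05, and the 9 comparisons had adjusted p-values of 0.129 or more. Relative to Adipoq, Lpl moved by -0.44 ± 0.16 (exact p = 0.1, n = 3 per group), with every day 1 array below every day 0 array. Plin1 moved by 0.42 ± 0.16 and Lipe by 0.59 ± 0.12, with no overlap of arrays in either case (exact permutation p = 0.1 each). For Fabp4 (0.25 ± 0.09, exact permutation p = 0.2) and Cidec (0.26 ± 0.17, exact permutation p = 0.3) the arrays of the groups overlapped. Pparg moved by 1.11 ± 0.16, Cebpa by 1.10 ± 0.12, Lep by 1.00 ± 0.17 and Pnpla2 by 1.26 ± 0.12 relative to Adipoq, all without overlap (exact permutation p = 0.1 each). Plin1, Lipe and these 4 genes therefore stood higher beside Adipoq in every day 1 array than in any day 0 array. For Pparg, Cebpa, Lep and Pnpla2, whose own changes were 0.03, 0.02, -0.08 and 0.18, this mainly restates the fall of Adipoq. It is no separate result for those genes.

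**Figure D3:**
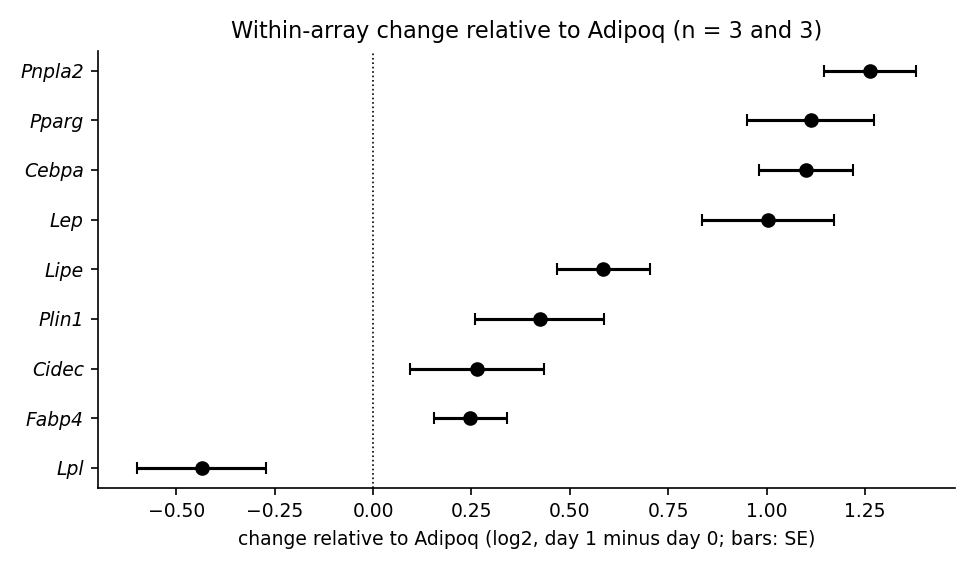
Change of each of the other 9 genes relative to Adipoq within the same arrays (horizontal axis, log2, day 1 minus day 0), with bars for the standard error of 3 and 3 arrays. Lpl is the gene to the left of 0, at -0.44, and Pnpla2, Pparg, Cebpa and Lep lie at 1.00 to 1.26. For genes that did not fall, the position mainly restates the fall of Adipoq.

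Other genes of the fat cell were read from 11 lists that leave out these 10, with 151 of 175 entries measured. Of 12 adipocyte identity genes 8 fell and 0 rose, by limma, with 4 not called (median -0.63). Of all genes tested, 20.7% fell and 27.6% rose, and the counts of the lists that follow are to be read beside these shares. Mest, linked to fat cell enlargement, was at 8.91, 8.63 and 8.90 on day 0 and at 6.06, 5.997 and 6.10 on day 1 (-2.76 ± 0.09). Car3, a carbonic anhydrase abundant in fat and slow muscle, changed by -2.46 ± 0.13, Nnat by -1.27 ± 0.07 and the metalloproteinase inhibitor gene Timp4 by -0.81 ± 0.08. Mest and Car3 thus fell further than any of the 10 genes. The 4 identity genes not called were Acvr1c (-0.27, adjusted p = 0.0525), Mrap (-0.25, adjusted p = 0.057), Slc7a10 (-0.25, adjusted p = 0.11) and Trarg1 (-0.21, adjusted p = 0.15). They were named after their values were seen.

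The droplet protein list was mixed: 3 of 11 rose and 2 fell (median 0.03). The share called, 45.5%, was near the 48.3% of all genes tested. Plin2, the perilipin that coats droplets in cells of many kinds, went the other way from Plin1. It was at 8.06, 8.21 and 7.94 on day 0 and at 10.30, 10.19 and 10.16 on day 1, which is a rise of 2.15 ± 0.08 or 4.43-fold (adjusted p = 5.22e-07). Hsd17b11 rose by 0.97 ± 0.06 and Aup1 by 0.75 ± 0.06. Plin5, the perilipin of oxidative tissues, fell by 0.39 ± 0.11 (adjusted p = 0.0189), a call that was lost when day 0 replicate 2 (adjusted p = 0.064), day 0 replicate 3 (adjusted p = 0.061) or day 1 replicate 1 (adjusted p = 0.0605) was left out. The list had 0 genes lower without day 0 replicate 2 or day 1 replicate 1, and 1 without day 0 replicate 1, day 0 replicate 3 or day 1 replicate 3.

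Of 14 genes of lipolysis and its control 9 fell and 1 rose (median -0.41). Aqp7, the channel through which fat cells release glycerol, was at 7.11, 7.37 and 6.997 on day 0 and at 4.57, 4.10 and 4.73 on day 1 (-2.69 ± 0.17). Npr3, the clearance receptor for natriuretic peptides, changed by -1.83 ± 0.10. The monoglyceride lipase gene Mgll, whose enzyme completes the breakdown begun by ATGL and hormone-sensitive lipase, changed by -1.59 ± 0.08, and the protein kinase A subunit gene Prkar2b by -0.98 ± 0.07. The adenosine receptor gene Adora1 rose by 0.33 ± 0.08. The activator and the inhibitor of ATGL, Abhd5 (-0.11 ± 0.06, adjusted p = 0.192) and G0s2 (0.01 ± 0.08, adjusted p = 0.956), were not called; these 2 were named after their values were seen.

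Of 18 genes of fatty acid uptake and lipase control 11 rose and 5 fell (median 0.55). Angptl4 and Angptl8, whose proteins inhibit lipoprotein lipase, were higher while Lpl was lower. Angptl4 was at 6.22, 6.10 and 5.86 on day 0 and at 8.08, 7.91 and 8.16 on day 1 (1.99 ± 0.11, 3.96-fold), and Angptl8 rose by 1.27 ± 0.12. The apolipoprotein gene Apoe rose by 1.78 ± 0.06 and the acyl-CoA synthetase gene Acsl4 by 1.19 ± 0.06. The lipoprotein receptor gene Vldlr fell by 1.04 ± 0.06.

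In fatty acid and triglyceride synthesis 9 of 20 genes rose and 9 fell (median -0.01). The larger changes were falls. The insulin-responsive glucose transporter gene Slc2a4 was at 9.31, 9.36 and 9.26 on day 0 and at 6.91, 6.82 and 6.63 on day 1 (-2.52 ± 0.08); it is expressed in muscle as well as fat. Thrsp, a lipogenic gene of fat and liver, changed by -1.88 ± 0.10, and the glycerol-3-phosphate supply genes Pck1 and Gpd1 by -1.58 ± 0.10 and -1.24 ± 0.10. Of the genes that rose, 0 reached 2-fold, and the largest rise was that of Dgat1, which makes triglyceride, at 0.97 ± 0.06. Of 16 fatty acid oxidation genes 8 rose and 3 fell (median 0.24). The carnitine palmitoyltransferase genes parted, with Cpt1a, the form of most tissues, at 0.97 ± 0.06 and Cpt1b, the form of muscle and brown fat, at -1.08 ± 0.07. Acadm fell by 1.06 ± 0.06.

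**Figure D4:**
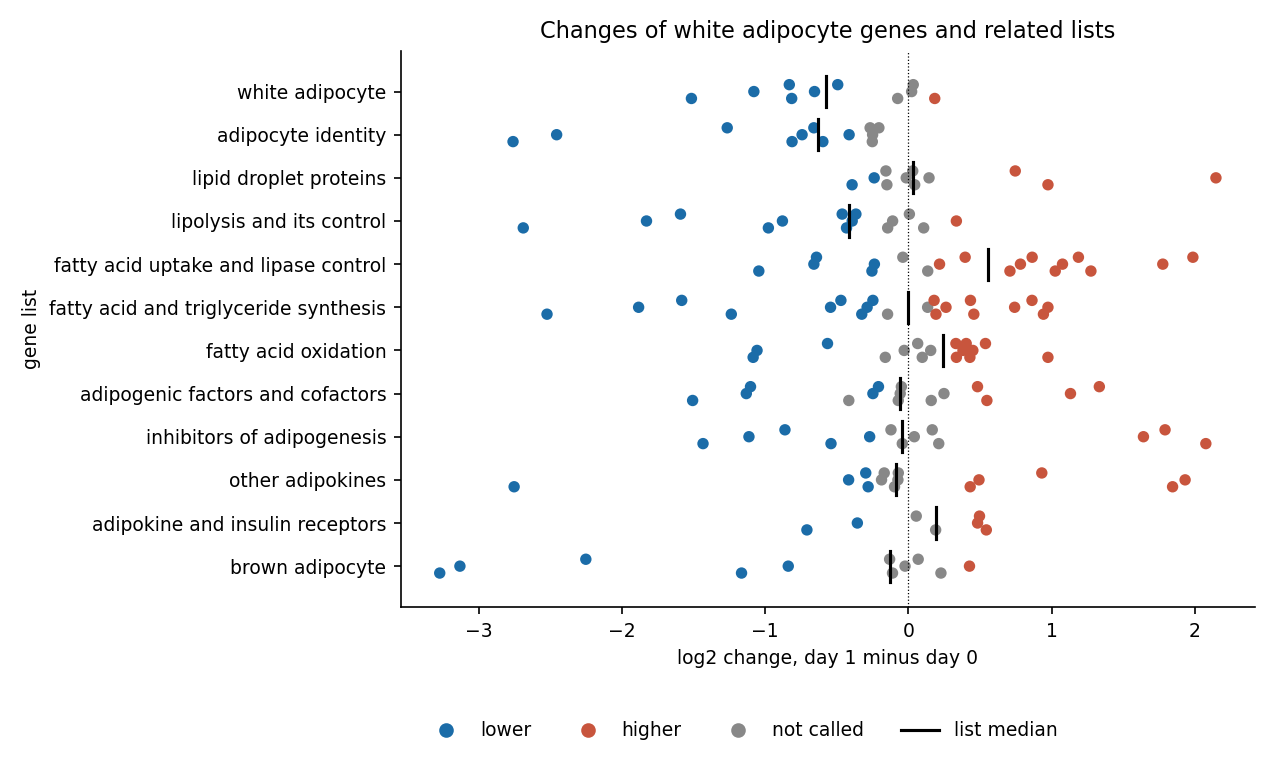
Log2 change, day 1 minus day 0 (horizontal axis), of each measured gene of the 10 white adipocyte genes and of 11 related lists (vertical axis), blue for called lower, red for higher, grey for not called, with a black bar at the list median. The adipocyte identity and lipolysis lists lie mostly below 0 (medians -0.63 and -0.41), and the fatty acid uptake list mostly above (median 0.55).

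Regulators of fat cell differentiation other than Pparg and Cebpa changed in both directions. Of 15 adipogenic factors and cofactors 4 rose and 5 fell (median -0.06). Cebpb, an early factor that precedes Pparg in differentiation and also responds to inflammation, rose by 1.33 ± 0.10, and the glucocorticoid-responsive factor gene Klf15 by 1.13 ± 0.10. The coactivator gene Ppargc1b fell by 1.51 ± 0.10 and the preadipocyte factor gene Zfp423 by 1.13 ± 0.06. Among 13 inhibitors of adipogenesis 3 rose and 5 fell (median -0.04). The 3 that rose were the stress-response genes Trib3 (2.08 ± 0.17) and Ddit3 (1.79 ± 0.06) and the growth factor gene Tgfb1 (1.64 ± 0.07), and the largest fall was that of Klf2 (-1.43 ± 0.09).

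Of 14 other adipokine genes 5 rose and 4 fell, or 2 without day 0 replicate 1 (median -0.09). The largest changes were in genes that cells other than adipocytes also express. Angptl2 was at 10.88, 10.89 and 10.75 on day 0 and at 8.21, 8.04 and 8.01 on day 1 (-2.75 ± 0.08), whereas Metrnl rose by 1.93 ± 0.09, the NAD synthesis gene Nampt by 1.84 ± 0.07 and Ccn5 by 0.93 ± 0.08. Among 7 adipokine and insulin receptor genes 3 rose and 2 fell (median 0.19). The adiponectin receptor genes Adipor1 and Adipor2 were higher, by 0.50 ± 0.06 and 0.54 ± 0.06, while Adipoq was lower. Cdh13, whose product T-cadherin also binds adiponectin, was not called (0.05 ± 0.07, adjusted p = 0.54); it was named after its values were seen. The insulin receptor gene Insr rose by 0.48 ± 0.07. The chemerin receptor gene Cmklr1 fell by 0.71 ± 0.07.

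Brown fat also lies around the rat aorta, and of 11 brown adipocyte genes 5 fell and 1 rose, or 2 without day 1 replicate 3 (median -0.13). With all 6 arrays 54.5% of this list was called, beside 48.3% of all genes tested. The amino acid transporter gene Slc36a2 was at 7.81, 7.87 and 7.70 on day 0 and at 4.53, 4.56 and 4.48 on day 1 (-3.27 ± 0.07), and the deiodinase gene Dio2 changed by -2.25 ± 0.08. Beside Adipoq at -1.08, the uncoupling protein gene Ucp1 was at -3.13 ± 0.21, and the difference between these changes was not tested. Both rows lay below the array medians on day 1. Gk rose by 0.43 ± 0.06. Elovl3, Otop1, Zic1, Lhx8 and Kcnk3 were not called (-0.13 to 0.23), and were named after their values were seen. The median of the brown list, -0.13, was that of Zic1, which was not called, beside -0.57 for the white adipocyte genes. It does not describe the larger falls: 4 of 11 brown genes were called lower by 2-fold or more, against 2 of the 10 white adipocyte genes. Elovl3, Otop1 and Zic1 were dim, with day 0 means of 4.49, 4.91 and 5.03.

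RNA of whole rings cannot tell fewer cells of a type from less RNA per cell, and the levels of other cell types moved too. Given as the mean log2 value of a marker list in an array, smooth muscle markers stood at 11.40 to 11.47 on day 0 and at 8.18 to 8.33 on day 1, with 8 of 8 lower. Endothelial markers, of which 7 of 10 rose and 2 fell, stood at 7.44 to 7.62 and then at 7.74 to 7.87. Macrophage markers, of which 4 of 13 rose and 3 fell, stood at 8.22 to 8.31 and then at 8.34 to 8.52, with Cd68 at 1.70 ± 0.06 and Lyve1 at -2.05 ± 0.08. Of 8 preadipocyte and adventitial progenitor markers 4 rose and 4 fell, with levels of 9.74 to 9.77 and then 9.43 to 9.58; Pdgfra was at 1.85 ± 0.07 and Pi16 at -1.94 ± 0.09. Of 10 skeletal muscle markers 3 fell and 2 rose, or 5 and 1 without day 0 replicate 1, with levels of 5.81 to 6.05 and then 5.34 to 5.39. Their median change was -0.14, with Acta1 at -4.16 ± 0.10, Ckm at -2.04 ± 0.10 and Myh1 at 0.95 ± 0.15. Acta1 and Ckm had day 0 means of 10.92 and 8.83. Myh1 was dim, with means of 4.34 on day 0 and 5.29 on day 1. Myh1, Myh2, Myh4, Tnni2, Myl11, Actn3 and Pvalb lay below the array medians throughout. Whether the rings held skeletal muscle was not tested. Of the macrophage markers 53.8% were called and of the skeletal muscle markers 50%, near the 48.3% of all genes tested. The 10 white adipocyte genes stood at 6.75 to 6.87 and then at 6.25 to 6.39. No defining marker was at 0, and the lowest marker value was 3.74, where the lowest of all deposited values was 1.32. Without a detection call, these values do not show which cell types were present. The part of the cell type shifts in the changes of the white adipocyte genes was not tested.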

How the data were processed

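Affymetrix whole-transcript arrays were hybridised with biotin-labelled target from 200 ng of total RNA, per the labels. The deposited table holds log2 expression values of 27342 rows in 6 arrays; their log2 scale is inferred, from values of 1.32 to 14.16. Limma is the tool that the submitters' processing notes name. How background, normalization and summarisation were handled, and which genome build was used, are points not given in the sources used here. Values were used without further scaling.

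Rows were named through the array annotation, with symbols updated by gene ID (15067 rows) or accession (6) against the GRCr8 gene table and kept in 24. The 323 rows with several symbols and the 11922 without one were not used. The row with the highest mean was kept for each of 14324 genes. Day 1 was set against day 0 in a linear model of all 6 arrays without covariates (limma 3.58.1, R 4.3.3; lmFit, then eBayes; two-sided). P-values were adjusted by Benjamini-Hochberg across the 14324 genes, and the fit was tested on simulated data. Exact permutation tests used scipy 1.17.1. The number of arrays limits the precision.

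The genes and lists were chosen with earlier results of these data known. Genes named from each list are up to 4 past the threshold with the largest absolute change and the largest opposite one, or the 2 largest where none passed; fewer are printed where counts suffice. The alternatives are given in the closing section.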

Additional observations from a re-analysis of the deposited data

How the results depend on the processing

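The 6 falls kept their direction and their call in every one of the alternatives that tested them, with Adipoq between -1.18 and -0.97, Lpl between -1.61 and -1.43, and the highest adjusted p that of Cidec at 0.0181. Without genes under the median mean, 4 of the 10 white adipocyte genes were tested, 3 were lower and 0 were not called. Adipoq, Plin1, Cidec, Pparg, Cebpa and Lep were not tested in that setting. The median change of the 10 genes lay between -0.64 and -0.52 in the settings that tested all of them; over the 9 genes left without the dimmest 25% it was -0.66. Pnpla2 was the gene counted as higher. That count was 0 with quantile normalization, median centring, every row as a feature, the replicate block (adjusted p = 0.0538) and in each fit that left out 1 array (0 to 0). Signs turned for Pparg (-0.031 with median centring, and -0.0013 to 0.056 with 1 array left out), Cebpa (-0.041 with quantile normalization, -0.042 with median centring, and -0.038 to 0.071 with 1 array left out) and Lep (0.031 with quantile normalization), none of which was called in any setting. The change of Fabp4 relative to Adipoq was 0.13 with quantile normalization. The cause of these shifts was not tested.

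Without genes under the median mean, fewer list genes were tested, and the counts lower were 4 for adipocyte identity, 5 for lipolysis, 3 for fatty acid uptake, 1 for fatty acid oxidation, 3 for inhibitors of adipogenesis, 2 for other adipokines, 1 for receptors and 1 for brown adipocytes; the counts higher were 0 for lipolysis, 0 for brown adipocytes and 0 for skeletal muscle. Skeletal muscle genes higher numbered 0 without the dimmest 25% and 1 with median centring or every row as a feature. With 1 array left out, droplet protein genes lower numbered 0 to 2, other adipokines lower 2 to 3, brown adipocyte genes higher 1 to 2, skeletal muscle genes lower 3 to 5 and higher 1 to 2. Array weights, a trended robust prior and the mean or most variable row of a gene moved no count by over 1.5 times.

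Same-numbered arrays showed little shared deviation: the correlations of their deviations from the group means were 0.01, 0.02 and 0.04. With 3 arrays per group, these values cannot show whether same-numbered pools shared animals. The replicate block left 6686 of 14324 genes called (6915 without it) and, of the white adipocyte genes, changed the call of Pnpla2 and of no other. Not every array correlated best with its own number. Among the 3 white adipocyte genes not called, the 95% interval reached at most 0.18 to either side of the estimate. The intervals ran as low as -0.25 for Lep and as high as 0.20 for Cebpa.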

Other observations

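Arrays of a group differed in the white adipocyte genes, and the other fat cell lists did not all differ the same way. Among the day 0 arrays, replicate 3 was the lowest in 6 of the 10 white adipocyte genes and the highest in 0, while over all 14324 genes it was the lowest in 35.9% and the highest in 29.6%. It was the lowest in 7 and the highest in 4 of 12 adipocyte identity genes, and the lowest in 4 and the highest in 2 of 11 brown adipocyte genes. Among the day 1 arrays, replicate 3 was the highest in 5 of the 10 genes and the lowest in 0, against 29.2% and 37.8% of all genes. In the brown list it went the other way, being the lowest in 8 and the highest in 0 of the 11 genes. Of the 12 identity genes it was the lowest in 6 (50%) and the highest in 4 (33.3%), both above the shares of all genes. These counts were seen in the data first and were not tested. Without day 0 replicate 3 or without day 1 replicate 3, the count of white adipocyte genes called lower was again 6.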
